A study of Rattus norvegicus with 12 samples.

Results

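The proteasome is the protease that degrades ubiquitin-tagged proteins in every nucleated cell. Rat genes of its subunits, activators and assembly chaperones carry symbols that start with Psma, Psmb, Psmc, Psmd, Psme, Psmf or Psmg, and every probe that named such a gene was followed in cultured rat hippocampal neurons after oxygen and glucose deprivation (OGD). Of the 15154 gene symbols on the array, 46 met this rule, on 52 of 30367 probes. One probe was kept per gene, the one with the highest mean signal. Psmb11, Psmd11, Psmg1 and Psmg3 had no probe and are named only. Psmc3ip and Psme3ip1 met the symbol rule, but their products bind other proteins of these families or act in other processes and are not subunits, so they are described apart.

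The cultures came from the hippocampi of E18 Wistar rat embryos and were 14 to 15 days old. OGD cultures were kept without glucose in an anaerobic chamber, and Ctrl cultures in a similar buffer with 25 mM glucose in air with CO2. Both were then returned to conditioned medium, and RNA was taken after 7 h or 24 h of recovery from 3 cultures per group, 12 arrays in all. Such cultures also hold glia, and a bulk array cannot tell fewer cells of a type apart from less RNA per cell.

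The barrel of the proteasome, the 20S core, is built of rings of alpha and beta subunits, and its peptide-cutting sites lie in Psmb5, Psmb6 and Psmb7. A 19S cap recognizes ubiquitin, removes it and feeds the substrate in: its base holds a ring of ATPases (Psmc1 to Psmc6), and its lid holds the deubiquitinase Psmd14. Under interferon, cells replace the cutting subunits by Psmb8, Psmb9 and Psmb10, giving the immunoproteasome, and the PA28 activator made of Psme1 and Psme2 rises with it. When proteasome activity is short, the transcription factor NFE2L1 raises the genes of the ordinary subunits together through antioxidant response elements. In brain, the ordinary form prevails in neurons, where proteasomes trim synaptic proteins, and immunoproteasomes are known mainly from immune cells and activated glia.

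RefSeq promoters of build GRCr8, from 250 bases before to 50 after each gene's start, were matched for 42 of the 46 genes and searched on both strands. Psmb8, Psmb10 and Psme2 stand for the immunoproteasome and PA28 genes, which interferon is known to raise. The constitutive Psmb5 and Psmb6 stand for the subunits whose place in the core immunoproteasome products take. Each promoter shown holds a match to the letters marked in it. Psmb9, Psme1 and Psmb7 belong to the same groups, had no such match and are not shown. Capitals mark the letters GAAANNGAA, the core of an interferon-stimulated response element, in the first 3 sequences, and TGACNNNGC, an antioxidant response element core, in the last 2. Psmb8 (chr20:4657022-4657111, minus strand, bases -80 to 10 around its start), Psmb10 (chr19:50743293-50743392, minus strand), Psme2 (chr15:33052752-33052851, minus strand), Psmb5 (chr15:32047380-32047479, minus strand) and Psmb6 (chr10:55737788-55737887, plus strand, these 4 from base -100 to base -1) read, 5′ to 3′:
Psmb8: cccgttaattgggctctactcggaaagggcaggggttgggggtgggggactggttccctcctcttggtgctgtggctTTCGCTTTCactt
Psmb10: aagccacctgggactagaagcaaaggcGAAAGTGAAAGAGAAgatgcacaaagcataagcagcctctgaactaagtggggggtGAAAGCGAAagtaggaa
Psme2: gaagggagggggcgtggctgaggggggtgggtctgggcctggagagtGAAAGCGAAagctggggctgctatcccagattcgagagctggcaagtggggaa
Psmb5: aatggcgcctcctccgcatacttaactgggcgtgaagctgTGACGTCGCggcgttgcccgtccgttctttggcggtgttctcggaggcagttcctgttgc
Psmb6: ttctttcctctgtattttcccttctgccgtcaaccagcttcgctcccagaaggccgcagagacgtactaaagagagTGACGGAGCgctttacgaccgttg

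Psmb10 and Psme2 hold the same match, GAAAGCGAA, and Psmb8 holds it on the other strand. GAAANNGAA was found in 3 of the 5 immunoproteasome and PA28 promoters, in 4 of 26 promoters of ordinary 20S and 19S subunits and in 9.71% of all 33469 promoters of this length. Psmb9 and Psme1 had no match in this window. The antioxidant cores TGACNNNGC or TGAGNNNGC were found in 12 of the 26 ordinary subunits, in 0 of the 5 immunoproteasome and PA28 genes and in 27.1% of all promoters. The CCAAT box, read as CCAAT, stood in 14 of the 26 ordinary subunits and in 37.5% of all promoters, and TTCNNNGAA, the core of a gamma-activated site, in 3 of the 26, in Psmb8 and in 8.87% of all promoters. A match is a description of letters only, and binding was not measured.

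Values are the log2 of the background-corrected spot signal minus the median of the array's probes, so that they show a change of a gene and not its level against another gene. OGD was compared with Ctrl at each time with limma, a linear model fitted over all probes. A gene is counted as higher or lower at an unadjusted p under 0.05, the threshold of the study's methods. No probe of the array passed after Benjamini-Hochberg adjustment, so the counts below are counts at the unadjusted threshold. The lowest adjusted p among the 46 genes was 0.315 at 7 h and 0.304 at 24 h.

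The probes of 45 genes were well above background on all 12 arrays. The exception was Psma8, the alpha subunit of the testis proteasome, whose probe was well above background on no array at 7 h and on 2 Ctrl and 2 OGD arrays at 24 h. It therefore has no fold at 7 h. The probe of Psmc5 was saturated on 1 array.

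At 7 h the set as a whole was little altered. The median log2 change of the 46 genes was -0.08, beside -0.06 over all probes, with 21 genes above 0 and 25 below. Of the 46 genes, 3 were higher (6.52%) and 7 lower (15.2%), against 4.79% and 7.03% of all probes. At 24 h the median was -0.01, beside 0.01 over all probes, and 1 gene was higher (2.17%) and 0 lower, against 7.51% and 6.19% of all probes. A fold of at least 2 was reached by 0 genes at either time, against 3.74% of all probes at 7 h and 5.67% at 24 h. The 95% interval of the change lay within 2-fold in both directions for 43 genes at 7 h and 42 at 24 h, where 62.2% and 61.0% of all probes well above background on every array had such an interval. The exceptions were Psmb8, Psmc3 and Psme4 at 7 h and Psmb8, Psmb9, Psma8 and Psme3 at 24 h. The 46 genes had bright probes, with a median signal percentile of 90.1 among all probes. Their median SE was 0.19 at both times, against 0.31 over all probes. The shares over all probes were not matched for brightness, so they do not show that proteasome genes were unusually stable. The counts and medians at 7 h include the fitted value of Psma8, although its probe was not well above background then.

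**Figure D1:**
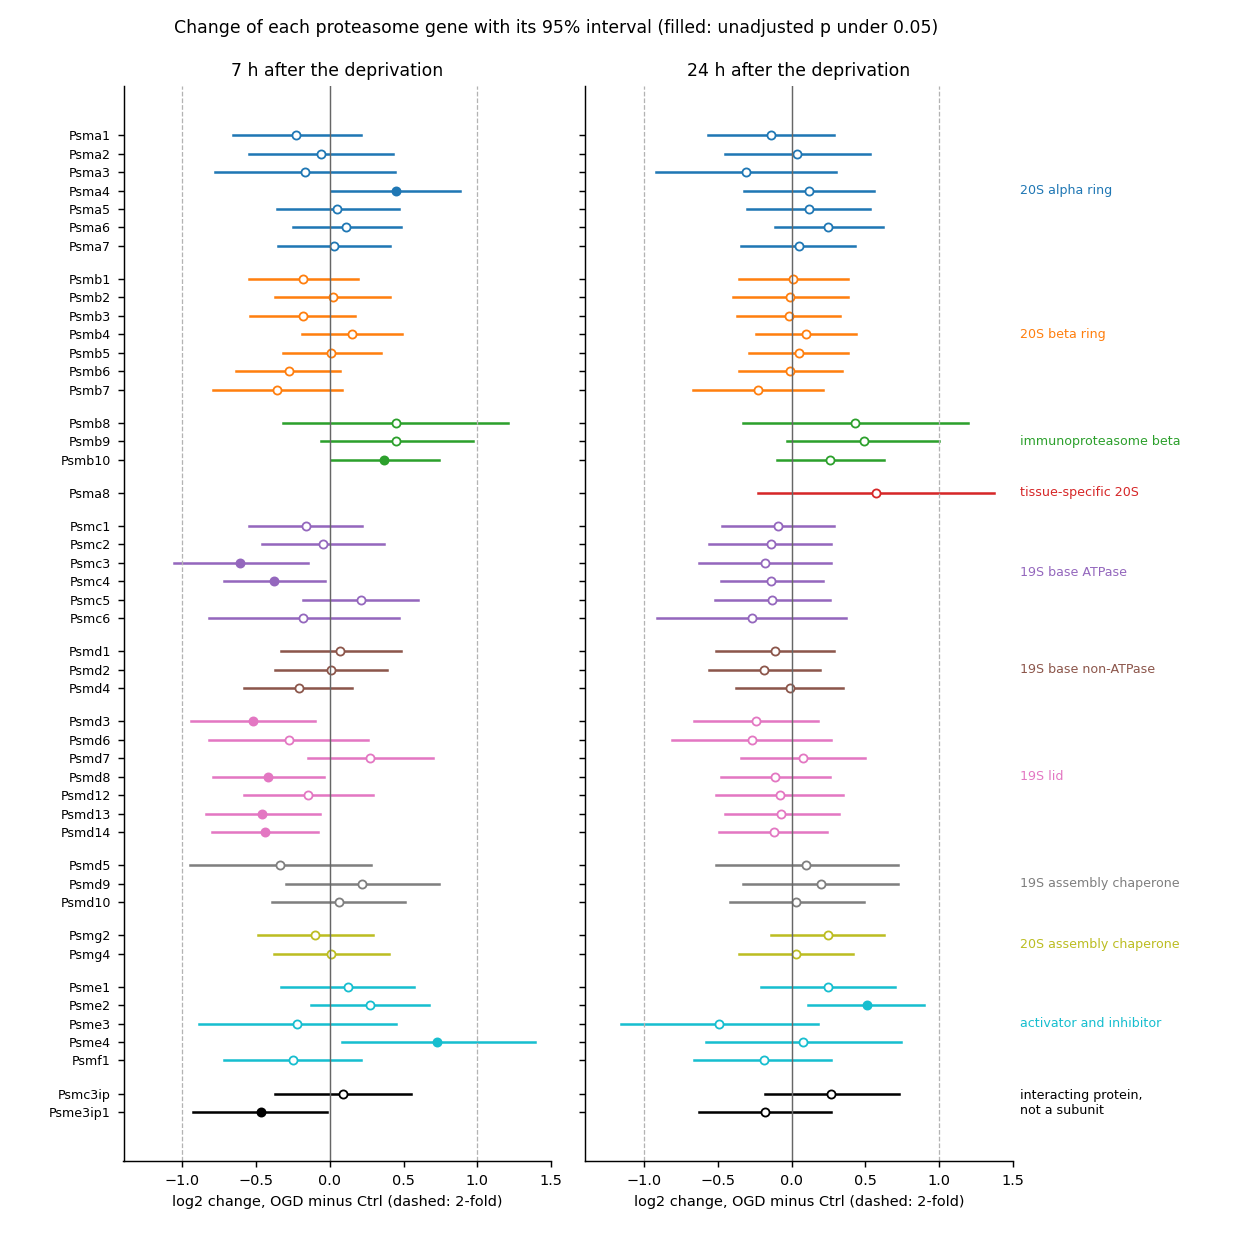
Log2 change from Ctrl to OGD (x axis) of each proteasome gene (y axis, grouped by particle) at 7 h and 24 h, as points with 95% intervals from 3 arrays per group. Filled points passed an unadjusted p of 0.05, and Psma8 is not drawn at 7 h. The immunoproteasome beta genes lie to the right of 0 at both times, and the filled points to the left at 7 h are 6 genes of the 19S cap and Psme3ip1.

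The 6 subunits among the 7 lower genes at 7 h all belonged to the 19S cap. They were Psmc3 and Psmc4 of the ATPase ring and Psmd3, Psmd8, Psmd13 and Psmd14 of the lid. None of the 14 ordinary 20S subunits was lower, and Psma4 was the 1 that was higher. Ctrl and OGD arrays shared slides, and with slide as a block in the fit Psmc3, Psmd3, Psmd13 and Psma4 still passed, while Psmc4, Psmd8, Psmd14, Psme3ip1, Psmb10 and Psme4 did not.

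In the 20S alpha ring, the gated end of the barrel, the median change of the 7 genes was 0.03 at 7 h and 0.05 at 24 h. Psma4 read 6.45, 6.57 and 6.14 in Ctrl and 6.98, 6.88 and 6.64 in OGD at 7 h. The groups did not overlap, and the change was 0.45 ± 0.20 (SE, n = 3 per group; limma, adjusted p = 0.416). At 24 h Psma4 read 6.60, 6.44 and 6.24 in Ctrl and 6.81, 6.38 and 6.44 in OGD, with overlap and a change of 0.12 ± 0.20. Psma6 was above its control on all 6 slides, by 0.11 ± 0.17 at 7 h and 0.25 ± 0.17 at 24 h, without passing the threshold. Its values at 7 h were 7.84, 7.96 and 7.79 in Ctrl and 7.96, 7.99 and 7.98 in OGD, and at 24 h 7.89, 7.69 and 7.53 in Ctrl and 8.14, 7.78 and 7.95 in OGD, with overlap at both times. The other 5 alpha genes, Psma1, Psma2, Psma3, Psma5 and Psma7, changed by -0.23 to 0.05 at 7 h and by -0.31 to 0.12 at 24 h.

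In the 20S beta ring the median was -0.18 at 7 h and -0.01 at 24 h, and 0 of 7 genes passed at either time. Psmb5, which carries the chymotrypsin-like site, read 6.77, 6.81 and 6.64 in Ctrl and 6.69, 6.74 and 6.84 in OGD at 7 h. These 2 groups lay within the same range, with a change of 0.01 and a 95% interval of -0.32 to 0.35. At 24 h the Psmb5 values were 6.86, 6.79 and 6.65 in Ctrl and 6.89, 6.85 and 6.71 in OGD, a change of 0.05 ± 0.15. Psmb6, the caspase-like subunit, read 5.27, 5.31 and 5.11 in Ctrl and 4.79, 4.90 and 5.15 in OGD at 7 h. The first 2 OGD arrays were lower than every Ctrl array and the third was not, giving -0.28 ± 0.16 (adjusted p = 0.505). At 24 h Psmb6 read 5.59, 5.64 and 5.47 in Ctrl and 5.52, 5.62 and 5.54 in OGD, and changed by -0.01. Psmb7, the trypsin-like subunit, read 6.23, 6.04 and 5.97 in Ctrl and 5.46, 5.77 and 5.94 in OGD at 7 h. No OGD array reached a Ctrl array, but the third lay only 0.03 below its control, and the change of -0.36 ± 0.20 did not pass (adjusted p = 0.497). At 24 h its values were 6.51, 6.51 and 6.32 in Ctrl and 5.91, 6.37 and 6.38 in OGD, and it changed by -0.23 ± 0.20. Psmb1, Psmb2, Psmb3 and Psmb4 changed by -0.18 to 0.15 at 7 h and by -0.02 to 0.10 at 24 h.

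The immunoproteasome genes lay above their controls at both times. All 3 were higher in the OGD array than in the control array of the same slide on all 6 slides, with a median change of 0.45 at 7 h and 0.43 at 24 h. Without OGD 7h replicate 3 the median at 7 h was 0.26. How many of all probes were above their controls on all 6 slides was not counted, so this pattern is a description only. Only Psmb10 at 7 h passed the threshold. Psmb8 (also called LMP7), which replaces Psmb5, read 0.14, 0.76 and 1.03 in Ctrl and 0.66, 0.93 and 1.69 in OGD at 7 h. Its cultures differed more among themselves than OGD differed from Ctrl, with a change of 0.45 ± 0.35 (adjusted p = 0.623). The change was 0.15 without OGD 7h replicate 3 and 0.20 without Ctrl 7h replicate 1. On the slides of replicates 1, 2 and 3 Psmb8 was higher in OGD by 0.52, 0.16 and 0.66. With slide as a block its change of 0.45 had an SE of 0.19 and did not pass. At 24 h Psmb8 read 0.15, 0.71 and 0.84 in Ctrl and 0.51, 1.30 and 1.19 in OGD, a change of 0.43 ± 0.35 (adjusted p = 0.577). In both conditions the replicate 1 arrays were the lowest. Psmb9 (LMP2), which replaces Psmb6, read 2.74, 2.37 and 2.69 in Ctrl and 3.10, 2.62 and 3.45 in OGD at 7 h, where only the second OGD array lay within the Ctrl range. The change was 0.45 ± 0.23 (adjusted p = 0.471). At 24 h Psmb9 read 2.82, 2.89 and 2.99 in Ctrl and 3.18, 3.31 and 3.67 in OGD. These groups did not overlap, and the change of 0.49 ± 0.23 had an adjusted p of 0.385. Psmb10 (MECL-1), which replaces Psmb7, read 5.79, 5.83 and 5.61 in Ctrl and 6.03, 6.08 and 6.24 in OGD at 7 h. Every OGD array lay above every Ctrl array, with a change of 0.37 ± 0.17, or 1.29-fold (limma, adjusted p = 0.416). At 24 h it read 5.70, 5.45 and 5.56 in Ctrl and 5.99, 5.66 and 5.84 in OGD, with overlap, and changed by 0.26 ± 0.17 (adjusted p = 0.488).

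**Figure D2:**
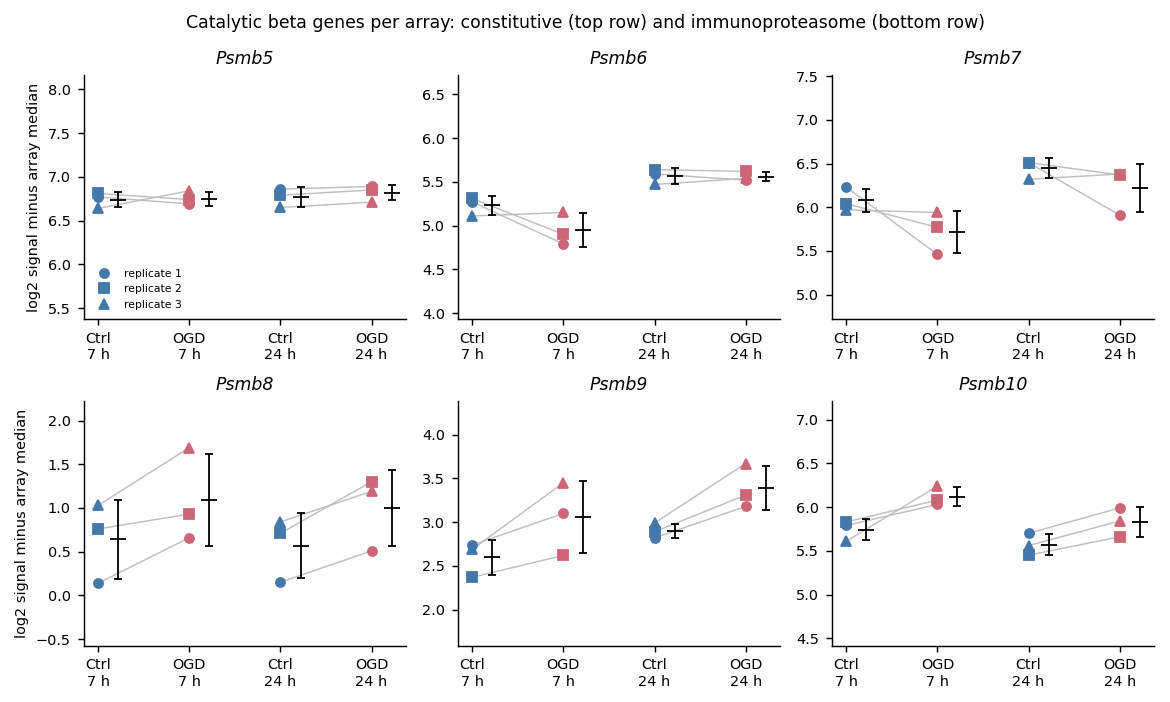
Log2 signal minus the array median (y axis, 2.8 log2 units in every panel) of the constitutive catalytic genes Psmb5, Psmb6 and Psmb7 and the immunoproteasome genes Psmb8, Psmb9 and Psmb10 on each array, with grey lines joining the arrays of a slide and black bars for the mean ± SD of 3 arrays. The lines of the bottom row rise on all 6 slides, those of Psmb7 fall at 7 h, and those of Psmb5 stay nearly level.

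Because an immunoproteasome subunit takes the place of 1 ordinary subunit, the log2 ratio of the 2 signals within an array was also followed. Scaling of the arrays cancels in it, and only its change between groups has a meaning. The ratio of Psmb9 over Psmb6, set to 0 at the Ctrl mean, read 0.10, -0.31 and 0.21 in Ctrl and 0.94, 0.35 and 0.92 in OGD at 7 h. At 24 h it read -0.10, -0.08 and 0.18 in Ctrl and 0.34, 0.36 and 0.80 in OGD. The groups did not overlap at either time, and the difference of the means was 0.73 at 7 h and 0.50 at 24 h. The ratio of Psmb10 over Psmb7 read -0.10, 0.13 and -0.03 in Ctrl and 0.91, 0.64 and 0.64 in OGD at 7 h, again without overlap, a difference of 0.73. At 24 h it read 0.06, -0.19 and 0.12 in Ctrl and 0.96, 0.17 and 0.34 in OGD, with a difference of 0.49 and the smallest gap, between 0.12 and 0.17. The ratio of Psmb8 over Psmb5 overlapped at both times, with differences of 0.44 and 0.38 and an SD among Ctrl cultures of 0.51 and 0.46. All 3 ratios were higher in OGD on each of the 6 slides. Many of the 24 other ways of processing described at the end cannot move these ratios. Among them are centring or scaling of whole arrays and leaving out an array of the other time. Over all 24, the difference stayed above 0 for every pair and time. At 7 h it lay between 0.58 and 0.93 for Psmb9 over Psmb6 and between 0.64 and 0.80 for Psmb10 over Psmb7. At 24 h these ran from 0.35 to 0.59 and from 0.25, without OGD 24h replicate 1, to 0.65. Psmb8 over Psmb5 moved most, from 0.17 to 0.95 at 7 h and from 0.13 to 0.72 at 24 h, with the lowest values without Ctrl 7h replicate 1 and without Ctrl 24h replicate 1. These pairs were formed with earlier results known, so the ratios are given as a description with no test.

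**Figure D3:**
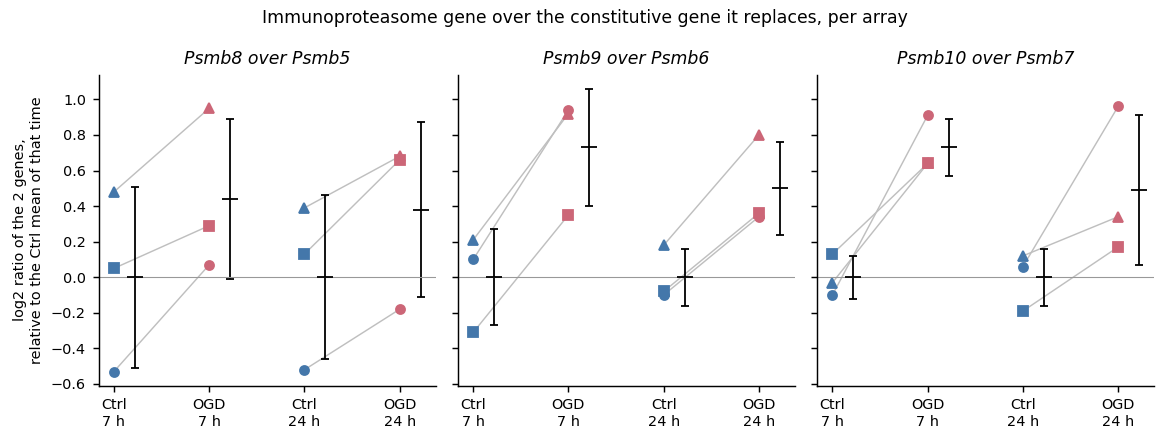
Log2 ratio of each immunoproteasome gene over the constitutive gene it replaces (y axis, relative to the Ctrl mean of the same time) on each array, with grey lines joining the arrays of a slide and black bars for the mean ± SD (n = 3). Ctrl and OGD arrays are separate for Psmb9 over Psmb6 and for Psmb10 over Psmb7 at both times, and overlap for Psmb8 over Psmb5.

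The 19S base recognizes, unfolds and threads the substrate. Its median change over 9 genes was -0.16 at 7 h and -0.14 at 24 h, with 2 genes lower at 7 h. Psmc3 (RPT5) read 5.95, 5.95 and 5.68 in Ctrl and 4.99, 5.25 and 5.53 in OGD at 7 h. The groups did not overlap, although the slides differed widely, by -0.96, -0.70 and -0.16. Its change of -0.61 ± 0.20, to 0.66 of the control, had the lowest p of the 46 genes at 7 h (limma, adjusted p = 0.315). At 24 h Psmc3 read 6.10, 6.25 and 6.05 in Ctrl and 5.63, 6.16 and 6.05 in OGD, and changed by -0.18 ± 0.20. Psmc4 (RPT3) read 4.88, 4.82 and 4.92 in Ctrl and 4.37, 4.43 and 4.69 in OGD at 7 h, without overlap, and changed by -0.38 ± 0.16 (limma, adjusted p = 0.389). At 24 h it read 5.10, 5.11 and 4.98 in Ctrl and 4.84, 5.03 and 4.92 in OGD, with overlap and a change of -0.14 ± 0.16. The other ATPases, Psmc1, Psmc2, Psmc5 and Psmc6, changed by -0.18 to 0.21 at 7 h. The scaffold and ubiquitin-receptor genes Psmd1, Psmd2 and Psmd4 changed by 0.07, 0.01 and -0.21 at 7 h and by -0.11, -0.19 and -0.01 at 24 h. All 9 base genes had a change below 0 at 24 h, none past the threshold.

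The 19S lid, which removes the ubiquitin chain, had the lowest median of the particles at 7 h, -0.42 over 7 genes, and 4 of the 7 were lower. At 24 h the median was -0.11 and 0 passed. Psmd14 (RPN11), the deubiquitinase of the lid, read 4.60, 4.73 and 4.48 in Ctrl and 4.06, 4.09 and 4.33 in OGD at 7 h. No OGD array reached a Ctrl array, and the change was -0.44 ± 0.16 (limma, adjusted p = 0.347). At 24 h it read 4.84, 4.69 and 4.59 in Ctrl and 4.51, 4.71 and 4.52 in OGD, and changed by -0.12. Psmd3 (RPN3), a scaffold subunit, read 4.66, 4.81 and 4.80 in Ctrl and 4.01, 4.31 and 4.38 in OGD at 7 h, without overlap, a change of -0.52 ± 0.19 (limma, adjusted p = 0.336). At 24 h Psmd3 read 4.70, 4.65 and 4.63 in Ctrl and 4.44, 4.72 and 4.11 in OGD, and only the second OGD array was as high as Ctrl. That change was -0.24 ± 0.19 (adjusted p = 0.579). Psmd13 (RPN9) read 5.24, 5.46 and 5.36 in Ctrl and 4.67, 4.91 and 5.11 in OGD at 7 h, a change of -0.46 ± 0.17 with no overlap (limma, adjusted p = 0.352). Psmd8 (RPN12) read 5.54, 5.52 and 5.38 in Ctrl and 4.99, 5.04 and 5.17 in OGD at 7 h, also with no overlap, and changed by -0.42 ± 0.17 (limma, adjusted p = 0.381). At 24 h Psmd13 read 5.40, 5.34 and 5.30 in Ctrl and 5.15, 5.49 and 5.21 in OGD, and changed by -0.07. Psmd8 then read 5.79, 5.70 and 5.57 in Ctrl and 5.63, 5.77 and 5.33 in OGD, and changed by -0.11. Both pairs of groups overlapped at 24 h. Psmd7, the partner of Psmd14, stood apart with 0.27 ± 0.19 at 7 h and 3 of 3 slides higher, and Psmd6 and Psmd12 changed by -0.28 and -0.15.

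**Figure D4:**
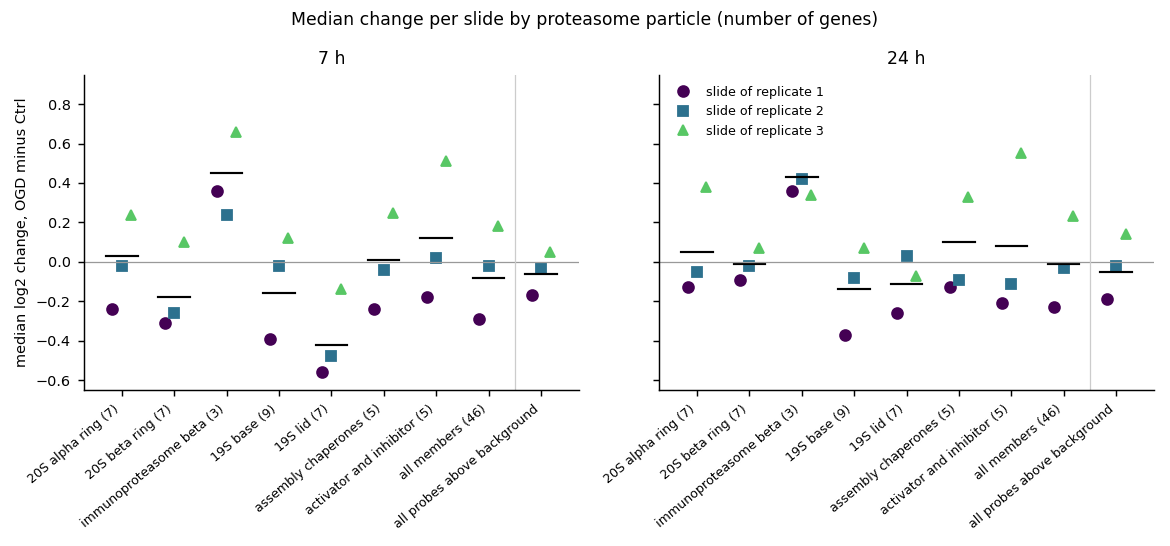
Median log2 change from the Ctrl to the OGD array of each slide (y axis) over the genes of each particle, with the number of genes in brackets and, at the right, over all probes well above background on the 12 arrays. Symbols are the 3 slides and the black line is the median of the fitted changes. The slide of replicate 1 is at or near the bottom and that of replicate 3 at or near the top in most groups at both times, and the immunoproteasome beta genes are above 0 on every slide.

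Among the activators, PA28 alpha and beta (Psme1 and Psme2) open the gate of the 20S core without ubiquitin. Psme2 was the 1 gene past the threshold at 24 h. It read 5.74, 5.76 and 5.49 in Ctrl and 6.37, 5.94 and 6.20 in OGD, without overlap, a change of 0.51 ± 0.18, or 1.42-fold (limma, adjusted p = 0.304). At 7 h Psme2 read 5.95, 5.86 and 5.81 in Ctrl and 6.16, 5.94 and 6.33 in OGD, where only the second OGD array lay within the Ctrl range, and changed by 0.27 ± 0.18 (adjusted p = 0.566). It was above its control on all 6 slides, as were the 3 immunoproteasome genes and also Psma6, Psmb4 and the chaperone Psmd9. The share of all probes with this pattern was not counted. Psme1 read 6.10, 5.63 and 5.67 in Ctrl and 5.92, 5.66 and 6.18 in OGD at 7 h, and 6.12, 6.21 and 6.02 in Ctrl and 6.19, 6.32 and 6.58 in OGD at 24 h. Both pairs of groups overlapped, with changes of 0.12 ± 0.20 and 0.25 ± 0.20.

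The nuclear activator PA28 gamma (Psme3) read 3.37, 3.0 and 3.14 in Ctrl and 2.69, 2.99 and 3.18 in OGD at 7 h, and 3.44, 3.89 and 3.53 in Ctrl and 2.37, 3.56 and 3.47 in OGD at 24 h. The first OGD array was the lowest at each time, and far below the rest at 24 h. The changes of -0.22 ± 0.30 and -0.49 ± 0.30 did not pass. PA200 (Psme4), another nuclear activator, read 3.58, 3.54 and 2.66 in Ctrl and 3.95, 3.93 and 4.10 in OGD at 7 h. The groups did not overlap, but the third Ctrl array was far below the other 2, and the change was 0.73 ± 0.30 (limma, adjusted p = 0.379). Without that Ctrl array it was 0.44 and did not pass. A second probe of Psme4 changed by -0.30 ± 0.40 at 7 h (adjusted p = 0.806), so that the probes of this gene disagreed in sign. At 24 h Psme4 read 3.81, 4.02 and 3.84 in Ctrl and 3.60, 3.75 and 4.56 in OGD, and changed by 0.08 ± 0.30. Psmf1 (PI31), an inhibitor of the 20S core in the test tube, read 5.30, 5.00 and 4.83 in Ctrl and 4.59, 4.82 and 4.96 in OGD at 7 h, and 5.49, 5.36 and 5.17 in Ctrl and 4.81, 5.25 and 5.38 in OGD at 24 h. Its changes were -0.25 ± 0.21 and -0.19 ± 0.21, with overlap. Its second probe was lower at 7 h, by -0.50 ± 0.19 (adjusted p = 0.355).

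The assembly chaperones had medians of 0.01 at 7 h and 0.10 at 24 h over 5 genes, none past the threshold. Psmd5, Psmd9 and Psmd10, which hold parts of the base until it is built, changed by -0.34, 0.22 and 0.06 at 7 h. The second probe of Psmd9 read -0.36 ± 0.17 at 7 h (adjusted p = 0.44), again of the other sign. Psmg2, a chaperone of the alpha ring, read 2.24, 2.04 and 2.12 in Ctrl and 1.98, 1.90 and 2.24 in OGD at 7 h, and 2.37, 2.10 and 2.07 in Ctrl and 2.6, 2.43 and 2.25 in OGD at 24 h. It was below Ctrl by -0.10 ± 0.18 at 7 h and above by 0.25 ± 0.18 at 24 h, with overlap. Psmg4 changed by 0.01 and 0.03, and its second probe by -0.05 and -0.04.

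Of the genes that are not subunits of the ordinary proteasome, Psme3ip1, whose product binds PA28 gamma, read 3.8, 3.62 and 3.39 in Ctrl and 3.01, 3.02 and 3.36 in OGD at 7 h. It was lower by -0.47 ± 0.21 (limma, adjusted p = 0.409), although the third OGD array lay only 0.03 below its control. At 24 h it read 3.83, 3.70 and 3.52 in Ctrl and 3.24, 3.8 and 3.47 in OGD, with overlap and a change of -0.18 ± 0.21. Psmc3ip, a factor of meiotic recombination, read 1.88, 2.01 and 2.13 in Ctrl and 2.12, 2.27 and 2.46 in OGD at 24 h, a change of 0.27 ± 0.21 with overlap. At 7 h it read 1.74, 1.75 and 1.9 in Ctrl and 1.57, 1.78 and 2.3 in OGD, a change of 0.09 ± 0.21. Psma8 changed by 0.57 ± 0.36 at 24 h, from -3.76, -3.96 and -4.30 to -3.31, -3.15 and -3.84, on a probe near background. Its 7 h readings, -3.87, -4.07 and -3.94 in Ctrl and -4.98, -3.35 and -4.09 in OGD, were not well above background.

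Whether the response differed between the times was tested as the difference between the 24 h and 7 h changes. It had a p under 0.05 for 0 of the 46 genes, against 3.58% of all probes, and its lowest value belonged to Psmd13 (adjusted p = 1.0), whose change was higher at 24 h by 0.39 ± 0.25. By the other ways of processing it was passed by at most 1 gene, which was Psma6, Psma8, Psmc3 or Psme4. The lid and ATPase genes that passed at 7 h and not at 24 h are thus not shown to differ between the times.

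The number of calls at 7 h varied when single arrays were left out. Without OGD replicate 1, 0 genes were higher and 0 lower, and the changes of the 6 cap genes lay between -0.31 and -0.47. The number lower, 7 with all arrays, was 1 without Ctrl 7h replicate 2, 2 without OGD 7h replicate 2, and 4 without Ctrl 7h replicate 1, without Ctrl 7h replicate 3 or without Ctrl 24h replicate 2. The number higher, 3 with all arrays, was 0 without Ctrl 7h replicate 3 and 1 without Ctrl 7h replicate 1, OGD 7h replicate 2, OGD 7h replicate 3 or any 1 of the 3 Ctrl 24h arrays. The split of 3 higher and 7 lower also moved with the scaling, to 5 and 1 when arrays were centred on the 75th percentile and 5 and 5 after quantile normalization. The change of Psmc3 stayed below 0 in all 24 other settings and passed in 20, more than any other gene at 7 h. That of Psme2 at 24 h was above 0 in 23 and passed in 21. Leaving out an array of 1 time cannot move the change at the other time, only its spread. The counts of settings above or below 0 thus include some that could not alter the sign. The number higher at 24 h, 1 with all arrays, was 0 without Ctrl 24h replicate 3 and 2 without OGD 7h replicate 2, OGD 7h replicate 3 or OGD 24h replicate 1, and the number lower, 0 with all arrays, was 1 without OGD 24h replicate 3.

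**Figure D5:**
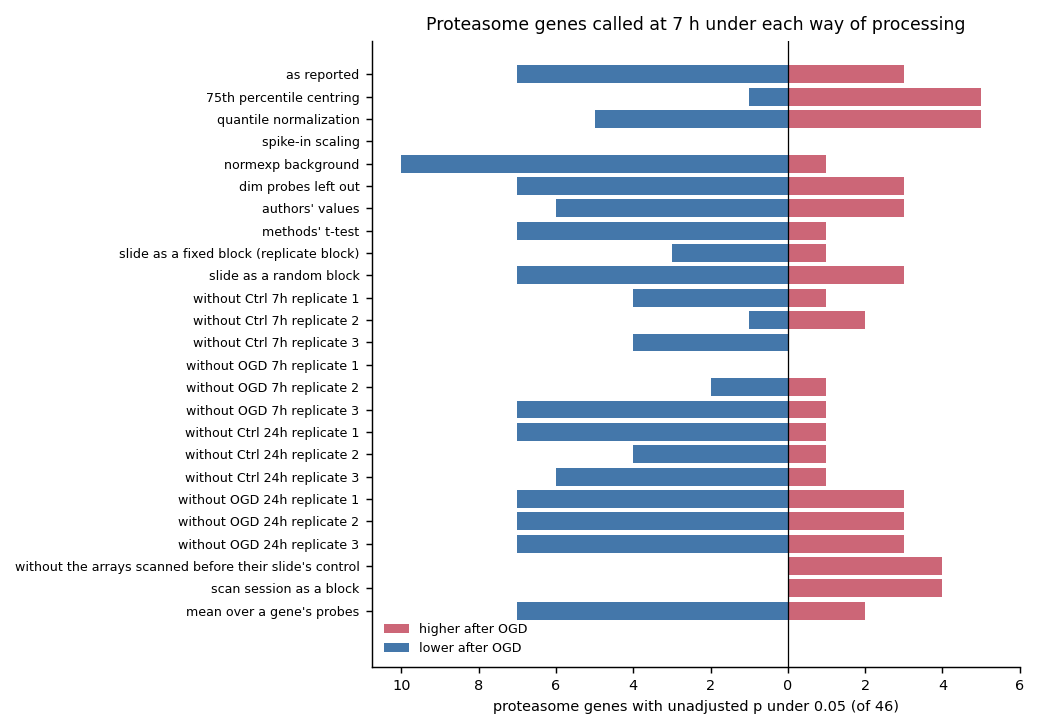
Number of the 46 proteasome genes with an unadjusted p under 0.05 at 7 h (x axis), lower after OGD to the left and higher to the right, under the reported processing and 24 other settings (y axis). The bar to the left runs from 10 genes after normexp correction to 0 with spike-in scaling or without OGD 7h replicate 1. With the early scanned arrays left out or blocked, the OGD side rests on replicate 3 alone, so those bars are not read.

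Technical measures moved with these values. The OGD arrays of replicate 1 were the dimmest of the 12, with median intensities of 234.2 at 7 h and 130.6 at 24 h, where the other 10 arrays lay between 363.8 and 660.3. They and OGD 7h replicate 2 were scanned 177 to 211 minutes before the control of their slide, and the other slides were scanned at once. The median change of the 46 genes on the slides of replicates 1, 2 and 3 was -0.29, -0.02 and 0.18 at 7 h and -0.23, -0.03 and 0.23 at 24 h. Over all probes well above background on every array, it was -0.17, -0.03 and 0.05 at 7 h and -0.19, -0.02 and 0.14 at 24 h. Leaving out the 3 early scanned arrays left only replicate 3 in the OGD 7 h group, so sizes of change are given without counts. Psmb8 then changed by 1.04, Psmb9 by 0.84 and Psmb10 by 0.50 at 7 h. The changes of the cap genes were then smaller, -0.33 for Psmc3, -0.18 for Psmc4, -0.37 for Psmd3, -0.31 for Psmd8, -0.25 for Psmd13 and -0.27 for Psmd14, and the median of the ordinary 20S and 19S subunits, -0.17 with all arrays, was 0.02. The part of brightness and scan order in the changes was not tested further. Ctrl and OGD arrays always took different positions of a slide, and the part of position in the changes was not tested. All arrays of a time were scanned on the same day.

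Cell markers also moved. All 16 neuron markers, the labelled cell type, were well above background on every array. Each had a change below 0 at 24 h, with a median of -0.71, and 9 passed the threshold (56.2%, against 6.19% of all probes). The slides differed widely: on those of replicates 1, 2 and 3 the median at 24 h was -1.48, -0.4 and -0.11. On these slides 1, 1 and 5 of the 16 markers were higher in OGD. The summed signal of the 16 markers at 24 h, in units of the array median, was 538 to 953 in OGD and 973 to 1330 in Ctrl. Stmn2 and Gap43, which take part in that sum, were saturated on 6 and 5 arrays. At 7 h their median was -0.34, with 2 of 16 lower. The 15 microglia markers, 9 of them well above background on every array, had medians of 0.26 at 7 h and 0.29 at 24 h with 1 higher at each time (Cx3cr1 at 7 h and Cd68 at 24 h), and Ptprc was well above background on no array. Their summed signal was 18.5 to 32.2 in OGD and 18.5 to 18.8 in Ctrl at 7 h, and 28.6 to 41.7 in OGD and 23.6 to 28.1 in Ctrl at 24 h. Of 11 astrocyte markers, 2 were higher at 7 h and 0 at 24 h, with medians of 0.15 and -0.29. The 2 were Aldoc and Slc1a3, whose probes were saturated on 11 and 5 of the 12 arrays. Of 12 oligodendrocyte lineage markers, 2 were lower at 7 h and 1 higher at 24 h, with medians of -0.15 and 0.14. Of 14 vascular and fibroblast markers, 3 were lower at 7 h and 2 higher at 24 h, with medians of 0.02 and 0.23. Only 9 of the 14 were well above background on every array, and the 3 lower ones, Cldn5, Pecam1 and Rgs5, were so on 0, 1 and 0 OGD arrays at 7 h. The part of a shift in cell types in the immunoproteasome and ordinary subunit values was not tested.

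Genes that work with the proteasome were read from lists drawn up for this purpose. Of the proteasome components without a Psm symbol, 6 of 9 had a probe and 0 passed at either time: the 20S maturation factor Pomp changed by 0.21 at both times, and the ubiquitin receptor Adrm1 by 0.11 and -0.51. The probe of the ubiquitin gene Ubb was saturated on all 12 arrays and that of Rps27a on 6, so no change is given for them. Of 10 ubiquitin shuttle and p97 genes with a probe, 0 passed. Vcp, the p97 unfoldase, changed by -0.31 and -0.17, and the shuttle Ubqln2 by -0.39 and -0.74 (adjusted p = 0.372).

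Of 8 transcription factors and helpers that control proteasome genes, Nfe2l1 is the factor that answers a shortage of proteasomes. Its RNA changed by -0.02 ± 0.23 at 7 h and -0.03 ± 0.23 at 24 h. The amount and activity of its protein were not measured, so these values do not show whether it acted. Nfe2l2, its relative in the oxidative stress response, changed by 0.61 ± 0.29 (adjusted p = 0.437) and 0.63 ± 0.29 (adjusted p = 0.368). Of their small Maf partners, Maff was higher at 7 h, by 1.46 ± 0.57 (adjusted p = 0.36), and Mafg lower at both times, by -0.50 ± 0.21 (adjusted p = 0.393) and -0.55 ± 0.21 (adjusted p = 0.316). Of 14 interferon and antigen-processing genes with a probe, 1 was higher at each time and 1 lower at 24 h (7.14% each). Over all probes, 4.79% were higher at 7 h, and 7.51% were higher and 6.19% lower at 24 h. The 14 genes had medians of 0.33 and 0.35, beside -0.06 and 0.01 over all probes. At both times 12 of 14 were above 0. By slide, replicates 1, 2 and 3 had medians of 0.13, 0.12 and 0.61 at 7 h. At 24 h these were -0.03, 0.47 and 0.47, with 7, 12 and 12 genes higher. B2m, the light chain of MHC class I, was higher by 0.56 ± 0.22 at 7 h (adjusted p = 0.356). At 24 h Tap2, a part of the peptide transporter that takes proteasome products to MHC class I, was higher by 0.69 ± 0.29 (adjusted p = 0.339) and the interferon-induced Mx1 lower by -1.05 ± 0.39 (adjusted p = 0.312). None of these passed after adjustment over all probes.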

How the data were processed

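RNA was amplified, labeled with Cy3 and hybridized by the authors to Agilent whole rat genome arrays with 1 color, 1 culture per array. The deposited intensity values come from Agilent Feature Extraction, which subtracted background without scaling between arrays. A second table, deposited by the authors, holds log2 values after their median centring and served as an alternative. Here outlier spots were dropped, repeated spots were averaged on the log2 scale, and each array was centred on the median over its 30367 probes. Probes were named through their accession in RefSeq (GRCr8 symbols; 18004 probes named), and the probes' own genome build was not needed. The 4 groups entered 1 limma model (limma 3.58.1, R 4.3.3), with two-sided tests and Benjamini-Hochberg adjustment over all probes. The fit was tested on simulated data. The 95% intervals use limma's 10.64 degrees of freedom. The number of arrays, 3 per group, limits the precision, and 78.3 to 87.1% of spots were well above background. Values in every sample are given for the catalytic beta genes, the activators, the inhibitor and the 10 genes with the lowest p at each time. The genes, lists and pairs were chosen with earlier results of these data known. Of the 46 genes, 19 have a named copy or pseudogene in RefSeq that their probe may also read. Alternatives were other scalings, background correction by normexp (on median spot signals, offset 50), a filter on dim probes, the authors' values, the methods' t-test, slide as a block, averaging all probes of a gene, and leaving out each array in turn.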

Additional observations from a re-analysis of the deposited data

How the results depend on the processing

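Under 24 other settings, the 23 genes given by sample kept their direction and side of the threshold in 916 of 1102 values. The number of genes higher at 7 h (3) became 5 with 75th percentile centring or quantile normalization, 1 with normexp or the methods' t-test and 0 with spike-in scaling. The number lower (7) became 1 with 75th percentile centring and 0 with spike-in scaling. Leaving out the arrays scanned before their slide's control and taking the scan session as a block were both chosen after seeing the data. Both leave the 7 h change resting on OGD 7h replicate 3 alone, so no counts are given for them at 7 h. At 24 h the number higher (1) became 2 with 75th percentile centring, the methods' t-test, the early arrays left out or the session block, 3 with quantile normalization and 0 with spike-in scaling or normexp. With slide as a replicate block, which pairs the arrays by number, 1 gene was higher and 3 lower at 7 h and 2 higher at 24 h. Arrays of the same number did not deviate together in every pair (their correlations over all probes ran from -0.05 to 0.17), so the numbers were not taken as pairs. Leaving out 1 array gave 0 to 3 higher and 0 to 7 lower at 7 h, 0 to 2 higher and 0 to 1 lower at 24 h, and 0 to 1 genes whose change differed between the times, which was also 1 with quantile normalization. Spike-in scaling rested on 1 spike probe and moved the median of all probes to -0.86 at 7 h and -1.01 at 24 h. Against that, the median of the 46 genes was -0.89 and -1.03, of the ordinary 20S and 19S subunits -0.97 and -1.11, and of the immunoproteasome beta genes -0.36 and -0.59. With normexp, where all probes had 0.08 at both times, these medians were -0.59 and -0.44, -0.68 and -0.52, and -0.02 and 0.11. The immunoproteasome median became 0.84 at 7 h and 0.59 at 24 h without the early arrays or with the session block, 0.54 at 24 h with 75th percentile centring, and 0.26 to 0.53 at 7 h and 0.33 to 0.59 at 24 h when 1 array was left out. The median of the 46 genes ran from -0.16 to -0.01 at 7 h and from -0.08 to 0.04 at 24 h when 1 array was left out, and that of the ordinary subunits from -0.23 to -0.05 and from -0.15 to 0.00. Without the early arrays or with the session block, the ordinary subunits had 0.02 at 7 h and 0.00 at 24 h. Spike-in scaling moves every gene of an array alike, so small positive changes turn negative by its construction, as did Psma4 (-0.36), Psmb8 (-0.36), Psmb9 (-0.35), Psmb10 (-0.43) and Psme4 (-0.07) at 7 h and Psme2 (-0.52) at 24 h. Among values past the threshold before or after, signs also reversed for Psma4 (-0.12), Psmb10 (-0.19) and Psma8 (0.86) at 7 h with normexp, and for Psma6 (-0.33) at 7 h with quantile normalization. The cause of the other shifts was not tested.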
